A study of Drosophila melanogaster with 17 samples.

Results

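The 10 genes dpr1 to dpr10 were followed in translating ribosome affinity purification (TRAP) libraries of Drosophila melanogaster. They were taken as the rows with exactly these 10 symbols, out of 16977 genes counted in each of 3 tissues. In TRAP a tagged ribosomal protein is expressed under GAL4 control, tagged ribosomes are pulled down, and the mRNAs that come with them are sequenced. Heads of 2 day old males (3 TRAP and 3 control libraries) and legs of 2 day old flies of both sexes (3 TRAP and 2 control libraries) carried DIP-gamma-GAL4 with UAS-Flag-GFP-RpL10 in TRAP, and UAS-Flag-GFP-RpL10/+ without a driver in controls. Axonal sections of L3 larvae, the last larval stage (3 TRAP and 3 control libraries) carried OK371-GAL4 with the same transgene in TRAP, and the same driverless genotype in controls.

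The transgene thus stood in every library, and the study describes leaky expression of it without GAL4, so control RNA can come from ribosomes of any cell of the tissue. DIP-gamma-GAL4 is an insertion in DIP-gamma and marks the neurons that use this gene. OK371-GAL4 is an enhancer trap in the vesicular glutamate transporter gene and marks glutamatergic neurons, which in flies include the motor neurons. Each library came from pooled animals. In larvae and legs the motor neuron cell bodies lie outside the dissected tissue, and muscle, epidermis and glia stay in it. The study also reports that OK371-GAL4 labels a few sensory neurons in the leg. For DIP-gamma-GAL4, the leg driver here, it found no obvious labelled cell bodies there. The study describes the replicates as biological, each from animals collected for it.

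Dpr proteins, named after the defective proboscis extension response of dpr1 mutants, are cell surface proteins of the immunoglobulin superfamily. They bind the Dpr-interacting proteins (DIPs), a related family of receptors, and each Dpr binds a small subset of DIPs. Neurons and their synaptic partners often carry matching Dpr and DIP pairs, and these pairs act in synaptic partner choice, synapse formation and cell survival, in the optic lobe and at the neuromuscular junction. The members fall into groups by the receptors they bind. Dpr1, Dpr2, Dpr3, Dpr4, Dpr5 and Dpr7 bind DIP-eta, DIP-theta and DIP-iota. Dpr6 and Dpr10 bind DIP-alpha and DIP-beta, and Dpr8 and Dpr9 bind DIP-beta. None of the 10 is among the ligands known for DIP-gamma, which are Dpr11, Dpr15, Dpr16 and Dpr17.

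The count totals were 29512310 to 40839267 per library in heads, 41211154 to 88324615 in larvae and 65975150 to 82987356 in legs. Values are given below as CPM, counts scaled to the size of the library, with edgeR's TMM correction for composition within each tissue. Levels in different tissues were scaled separately and are only set side by side. A value of 3 counts, taken as the detection floor, corresponded to 0.0298 to 0.105 CPM, a limit that covers counting error only. A list of 15 neuronal genes summed to 2098 to 6771 CPM in head TRAP libraries, against 1064 to 1529 CPM in head controls, and 13 of its 15 genes were called higher. None of the 15 was called in larvae or in legs.

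The members are spread over the genome. On BDGP6, dpr5 lies on chromosome arm 3R from 11499984 to 11505951 (plus strand) and dpr4 on 3R from 11533483 to 11542949 (minus strand), 27.5 kb apart with no counted gene between them. dpr6 lies on 3L from 9974651 to 10139360 (plus strand), and dpr10, its partner in binding DIP-alpha, lies 8.09 kb away on 3L from 10147454 to 10186108 (minus strand). dpr2 lies on 2L from 10917015 to 10964153 and dpr3 on 2L from 2058790 to 2109878, dpr9 on 3R from 15054930 to 15077206 and dpr7 on chromosome 4 from 247124 to 253329, all on the minus strand. dpr8 lies on X from 14322226 to 14462351 (plus strand), and dpr1 spans 52.0 kb of 2R. Exons made up 3.54% of the span of dpr8 and 3.83% of that of dpr6, against 31.6% of dpr4 and 31.2% of dpr5, so the members range from compact genes to genes that are mostly intron.

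In heads, 8 of the 10 members rose in TRAP and none fell. These were dpr2, dpr3, dpr4 and dpr5 of the group that binds DIP-eta, DIP-theta and DIP-iota, and dpr6, dpr8, dpr9 and dpr10, all 4 of the group that binds DIP-alpha or DIP-beta. The called changes lay between 2.81-fold (dpr9) and 4.34-fold (dpr2). dpr1 and dpr7 did not pass the test. The share of all 16638 genes tested that was called higher was 7.23% (edgeR quasi-likelihood test, Benjamini-Hochberg adjusted p under 0.05). A rise here is a higher share of the pulled-down RNA than in driverless controls, and does not measure a change of expression in a cell. In bulk libraries, more tagged cells that express a gene and more of its RNA per tagged cell cannot be told apart.

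In the same 8 members every TRAP library lay above every control, where 16.3% of all genes tested did so. The median log2 fold change was 1.59 over the 10 members, 1.57 over the 6 of the first group and 1.60 over the 4 of the second, against 0.32 over all genes tested. The plot of head values by library shows both the separation of the 8 and the spread among the TRAP libraries.

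**Figure D1:**
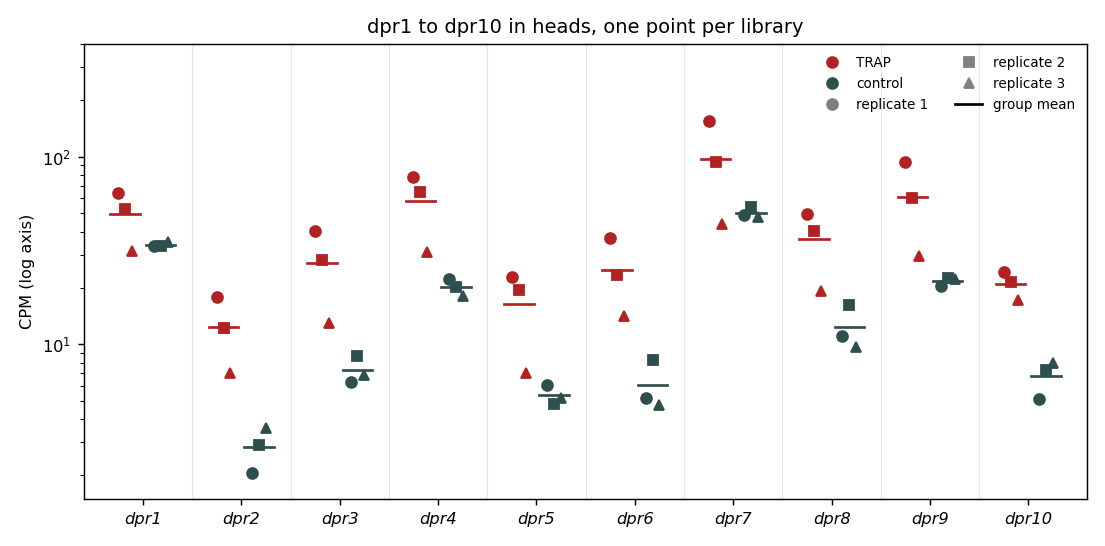
CPM (log axis) of dpr1 to dpr10 in the 6 head libraries, TRAP left of control for each gene, with 1 point per library and a line at the group mean. With TMM scaling all TRAP points sit above all control points in 8 genes, while for dpr1 and dpr7 the TRAP replicate 3 point falls below the controls. TRAP replicate 1 is highest and TRAP replicate 3 lowest of the TRAP libraries in all 10 genes.

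Among the ligands of DIP-eta, DIP-theta and DIP-iota, dpr2 had 17.8, 12.3 and 7.08 CPM in TRAP replicates 1 to 3, against 2.07, 2.91 and 3.57 CPM in controls 1 to 3. Its groups were well apart, and its log2 fold change of 2.12 (SE 0.40, edgeR adjusted p = 0.00583) was the largest of the 10. dpr3 had 40.1, 28.4 and 13.0 CPM in TRAP libraries, against 6.29, 8.68 and 6.84 CPM in controls. Its log2 fold change was 1.90 (SE 0.37, edgeR adjusted p = 0.00726). The lowest TRAP library of dpr3 was still above its highest control.

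dpr4 had 78.5, 64.6 and 31.2 CPM in TRAP libraries, against 22.2, 20.2 and 18 CPM in controls (log2 fold change 1.53, SE 0.31, edgeR adjusted p = 0.00816). The 3 controls were close together and the TRAP libraries were not. The neighbouring gene dpr5 had 22.8, 19.5 and 7.03 CPM in TRAP libraries, against 6.10, 4.78 and 5.16 CPM in controls. TRAP replicate 3 of dpr5 was only slightly above control 1, and the log2 fold change was 1.62 (SE 0.40, edgeR adjusted p = 0.0209). In the annotation dpr4 shares 469 exonic bases with CR45056, a gene on the opposite strand, and the sources used here do not give the strand setting of the counting. CR45056 had 209, 200 and 256 counts in head TRAP libraries, against 106, 89 and 64 counts in head controls, so that reads of the 2 genes cannot be told apart where they overlap.

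dpr7 had 154.6, 93.9 and 44.0 CPM in TRAP, against 49.2, 54.0 and 47.6 CPM in controls. With TMM scaling its TRAP replicates 1 and 2 were above every control and TRAP replicate 3 was below every control. The log2 fold change was 0.96 (95% interval 0.14 to 1.77, edgeR adjusted p = 0.109). dpr1, the gene that gave the family its name, had 64.5, 52.6 and 31.4 CPM in TRAP libraries, against 33.5, 33.5 and 35.0 CPM in controls. TRAP replicate 3 was again the one library below all controls, and the log2 fold change was 0.54 (95% interval −0.02 to 1.10, edgeR adjusted p = 0.183). In both genes this position depended on the TMM factor, 1.35 for TRAP replicate 3 and 0.824 to 0.869 for the controls. Scaled by library totals alone, TRAP replicate 3 was above every control in both. Without TRAP replicate 3 both genes were called, with log2 fold changes of 1.27 for dpr7 and 0.74 for dpr1.

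In the second group, dpr6 had 36.9, 23.4 and 14.1 CPM in TRAP libraries, against 5.15, 8.26 and 4.74 CPM in controls. This was a log2 fold change of 2.03 (SE 0.37, edgeR adjusted p = 0.00522), close to that of dpr2. dpr10, known in muscle as the partner of motor neuron DIP-alpha, had 24.3, 21.6 and 17.2 CPM in TRAP libraries, against 5.08, 7.28 and 7.96 CPM in controls. Its 3 TRAP libraries were the most even of the 10 genes, and with a log2 fold change of 1.63 (SE 0.26) it had the lowest edgeR adjusted p of the members, 0.00264.

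dpr8 had 49.3, 40.3 and 19.4 CPM in TRAP libraries, against 11.2, 16.2 and 9.65 CPM in controls (log2 fold change 1.56, SE 0.35, edgeR adjusted p = 0.0129). The gap between its lowest TRAP and highest control library was small. dpr9 had 94.4, 60.3 and 29.6 CPM in TRAP libraries, against 20.4, 22.7 and 22.4 CPM in controls (log2 fold change 1.49, SE 0.35, edgeR adjusted p = 0.0169). Its controls were nearly equal, and its TRAP libraries ran from 1.35 to 4.33 times the control mean.

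Among the head TRAP libraries the 10 members moved together, while the highest control differed from member to member. In all 10 the order was TRAP replicate 1, then 2, then 3, and the members summed to 583, 417 and 214 CPM in TRAP replicates 1 to 3, against 161, 179 and 161 CPM in controls 1 to 3. The sum of the 15 neuronal genes had the same order, with 6771, 4787 and 2098 CPM in TRAP replicates 1 to 3. Sums of photoreceptor, fat body and hemocyte marker genes had it too, with 760, 635 and 478 CPM for fat body and 78.1, 62.8 and 39.9 CPM for hemocytes. The muscle, glial and salivary gland sums did not. Set against the neuronal sum, the members came to 8.61%, 8.71% and 10.2% of the neuronal list in TRAP libraries and to 15.1%, 14.9% and 10.5% in controls. The members' sum therefore differed less between the groups than the neuronal sum did. The uncalled dpr7 and dpr1 made up 30.1% and 20.4% of the members' sum in head controls. Gene by gene, the median log2 fold change was 1.59 over the members and 1.79 over the neuronal list.

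Other cell type markers also differed between the head groups. The sum of 12 muscle genes was 8825 to 15054 CPM in TRAP libraries, against 21140 to 31180 CPM in controls, with 6 of 12 called lower and none higher. Of 8 glial genes none was called higher and 1 lower, with sums of 1165 to 1365 CPM in TRAP and 1726 to 2134 CPM in controls. Of 10 photoreceptor genes 9 were called higher, with sums of 116 to 329 CPM in TRAP and 37.1 to 52.2 CPM in controls. None of the markers of these lists was at 0 in all head libraries. The part of these differences in the dpr changes was not tested.

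The rest of the family had higher median changes in heads than the members, with overlap between single genes. All 11 of dpr11 to dpr21 rose, with a median log2 fold change of 2.73, and 9 of the 11 DIP receptor genes rose, with a median of 2.84. DIP-gamma, the gene the driver is inserted in, had 49.5, 43.3 and 10.3 CPM in TRAP libraries, against 0.381, 0.297 and 1.5 CPM in controls (log2 fold change 5.57, SE 0.76, edgeR adjusted p = 0.00142). Receptors of the first group of members did not move as one. DIP-theta rose by 1.94 on the log2 scale, DIP-iota was at 1.07 CPM in TRAP and 0.668 CPM in controls on average and was not called, and DIP-eta had a mean of 10.7 CPM in TRAP and 16.1 CPM in controls (log2 fold change −0.58, edgeR adjusted p = 0.185). Of the receptors of the second group, DIP-alpha rose by 2.33 and DIP-beta by 4.16 on the log2 scale.

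Scaling set the level of all head changes. With library totals as the only scaling, the median of all genes tested shifted up by 0.49 on the log2 scale and the calls became 2909 higher and 463 lower, against 1203 higher and 1565 lower with TMM. Relative to the all-gene median, the members' median was 1.27 higher with TMM and 1.21 higher with library totals, and all 10 members were above the all-gene median under both. A single fit of all 3 tissues ended every call, with log2 fold changes of the members between 0.42 and 1.99.

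Leaving out 1 head library at a time gave 5 to 10 members called, with 5 without control 1 or control 3 and 10 without TRAP replicate 3. dpr2, dpr3, dpr4, dpr6 and dpr10 were called in all 6 of these fits. dpr5 was lost without TRAP replicate 2 and without each control, dpr9 without each control, and dpr8 without control 1 or control 3, with edgeR adjusted p-values up to 0.0779 for dpr5, 0.072 for dpr9 and 0.0603 for dpr8.

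In larval axonal sections, none of the 10 members was called in either direction (edgeR quasi-likelihood test), where 0.234% of the 16702 genes tested were called higher. At an unadjusted p under 0.05 there were 3 members, dpr4, dpr8 and dpr9, and DESeq2 called 1, dpr4. No member had every TRAP library above every control, as 4.53% of all genes tested did. The members' values were dominated by a single library, TRAP replicate 1, which was highest of the 6 for 9 of the 10. The members summed to 178, 11.4 and 16.9 CPM in TRAP replicates 1 to 3, against 1.02, 14.4 and 20.1 CPM in controls 1 to 3.

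dpr4 had the clearest larval values, with 50.7, 6.56 and 0.960 CPM in TRAP replicates 1 to 3, against 0.141, 0.954 and 2.29 CPM in controls 1 to 3. TRAP replicate 3 lay within the controls, and the log2 fold change was 4.10 (SE 1.11, edgeR adjusted p = 0.278). The edgeR adjusted p ran from 0.000105, without control 3, to 0.877, without TRAP replicate 1, and dpr4 was called in 4 of the 6 fits that left out 1 library. The opposite-strand gene CR45056 had 1959 counts in TRAP replicate 1, where dpr4 had 3474 counts, and at most 105 counts in any other larval library.

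dpr8 had 33.6, 0 and 1.75 CPM in larval TRAP libraries, against 0, 0.457 and 2.10 CPM in controls (log2 fold change 3.79, 95% interval 0.32 to 7.25, edgeR adjusted p = 0.721). It was called without control 3 alone, with an edgeR adjusted p of 0.00864. dpr9 had 18.4, 0 and 1.75 CPM in TRAP libraries, against 0, 0.537 and 0.482 CPM in controls (log2 fold change 4.29, 95% interval 0.51 to 8.08, edgeR adjusted p = 0.705). In both genes 1 library of each group was at 0 counts, so the groups overlapped despite the large ratio of their means.

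dpr1 had 3 counts in larval control 1 and at least 122 counts in every other larval library. Its values were 32.1, 4.26 and 3.87 CPM in TRAP, against 0.0424, 3.81 and 5.37 CPM in controls. Apart from TRAP replicate 1 and control 1, its levels were close to each other. dpr10, whose product sits on muscles opposite DIP-alpha, had 15.5, 0.174 and 2.54 CPM in TRAP libraries, against 0.0141, 3.31 and 2.35 CPM in controls. dpr6 had 7.18, 0.209 and 1.38 CPM in TRAP, against 0.113, 2.36 and 2.17 CPM in controls. In both genes the other TRAP libraries were no higher than controls 2 and 3, apart from TRAP replicate 3 of dpr10, which was above control 3.

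In the rest of the first group, dpr7 had 12.9, 0 and 2.24 CPM in larval TRAP libraries, against 0.113, 2.26 and 2.26 CPM in controls. dpr3 had 3.88, 0 and 2.26 CPM in TRAP, against 0.453, 0.239 and 1.0 CPM in controls. dpr2 had 3.93, 0.209 and 0.123 CPM in TRAP, against 0, 0.328 and 0.843 CPM in controls. Each had its highest value in TRAP replicate 1 and overlapping groups. dpr5 was the exception among the 10. It had 13, 0 and 0 counts in TRAP libraries, against 10, 17 and 120 counts in controls, with a log2 fold change of −2.90 (95% interval −8.20 to 2.39, edgeR adjusted p = 0.863). Its position next to dpr4 on 3R did not go with a like pattern in these libraries.

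The larval libraries differed strongly in how many genes they held. Genes at 0 counts numbered 782, 6086 and 3163 in TRAP replicates 1 to 3, against 5504, 1191 and 1225 in controls 1 to 3. The library with the fewest genes at 0 was the one with the highest member values, and the 2 with the most, TRAP replicate 2 and control 1, held 5 and 3 members at 0. The part of these differences in the dpr values was not tested. Without TRAP replicate 1, dpr2, dpr6, dpr7 and dpr10 turned negative, with log2 fold changes of −1.17, −0.95, −0.47 and −0.49. Without the 2 libraries with most genes at 0, a setting chosen after the data were seen, still no member was called, and dpr4 had a log2 fold change of 3.69 (edgeR adjusted p = 0.28).

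Neuronal markers did not separate the larval groups either, with sums of 620, 117 and 191 CPM in TRAP replicates 1 to 3, against 160, 248 and 301 CPM in controls 1 to 3. All 8 salivary gland genes of the marker list were called higher, with sums of 3502 to 37922 CPM in TRAP libraries and 75.5 to 190 CPM in controls, and TRAP replicate 2, with 5 members at 0, had the highest of these sums. Its part in the dpr values was not tested.

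**Figure D2:**
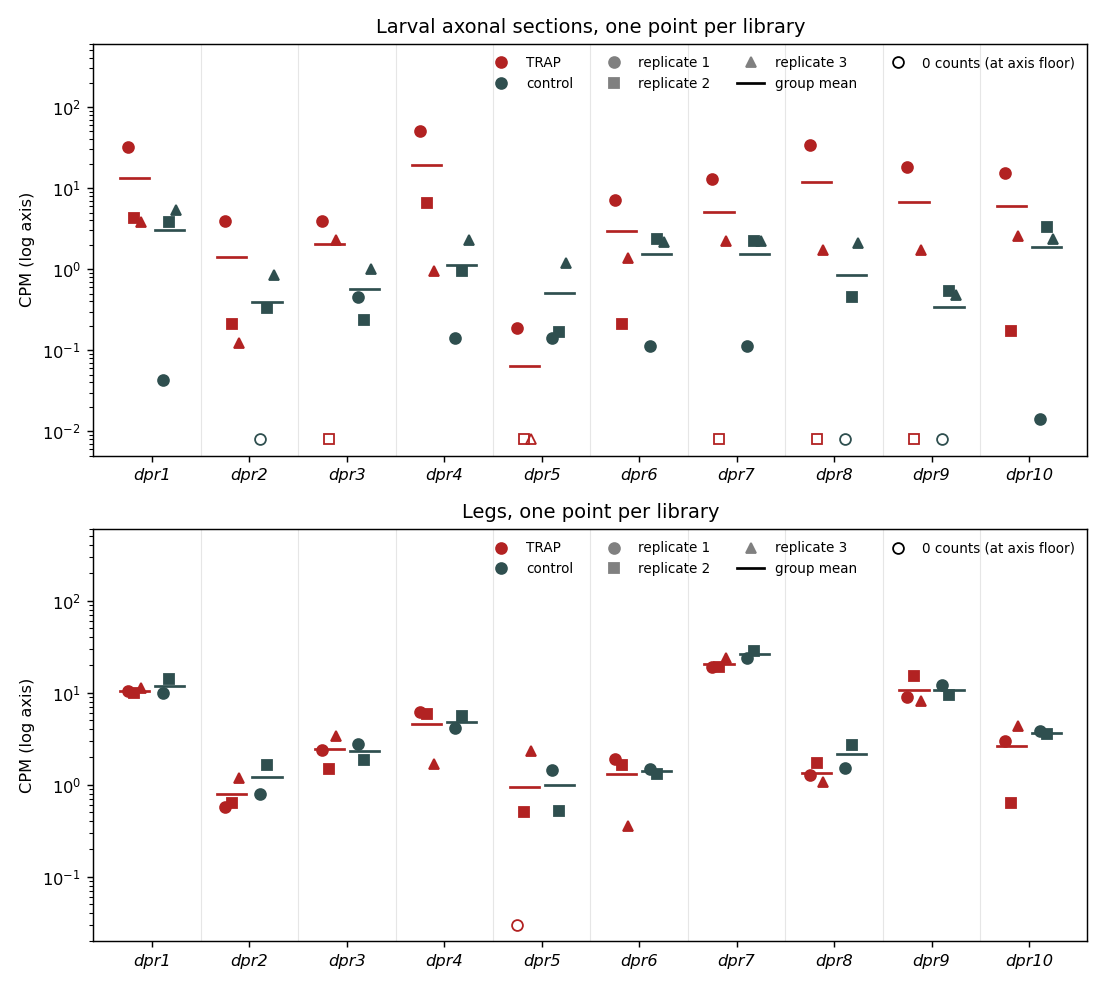
CPM (log axis) of dpr1 to dpr10 in larval axonal sections (top) and legs (bottom), TRAP left of control, with 1 point per library, open symbols at the axis floor for 0 counts and a line at the group mean. In larvae TRAP replicate 1 is highest for 9 genes and control replicate 1 near or at 0 for most. In legs the groups overlap for all genes except dpr7, whose TRAP values of 19.0 to 23.6 CPM are all below the control values of 23.8 and 28.7 CPM.

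In legs, none of the 10 members was called (edgeR quasi-likelihood test), none reached an unadjusted p under 0.05, and DESeq2 called none. Of the 14200 genes tested, 0.113% were called higher and 0.12% lower. The members' median log2 fold change was −0.14, against −0.01 over all genes tested, and 9 of the 10 values were below 0. The driver's own gene was near its floor here, with 18, 0 and 0 counts of DIP-gamma in TRAP libraries, against 0 and 6 counts in controls, while the 15 neuronal genes summed to 653 to 694 CPM in TRAP and 609 to 693 CPM in controls. The 12 muscle genes summed to 13498 to 16374 CPM in leg TRAP libraries and 20525 to 20617 CPM in leg controls, with none called and 9 of the 12 below every control in every TRAP library. The part of this difference in the dpr values was not tested.

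dpr7, dpr1 and dpr9 made up 74.8% of the members' summed CPM in leg TRAP libraries and 74.7% in leg controls, without correction for length. dpr7 had 19.0, 19.0 and 23.6 CPM in TRAP libraries, against 23.8 and 28.7 CPM in controls. It was the one member with every TRAP library below every control, as were 12.8% of all genes tested, and its log2 fold change was −0.35 (95% interval −0.79 to 0.09, edgeR adjusted p = 0.66). dpr1 had 10.5, 9.81 and 11.2 CPM in TRAP libraries, against 9.91 and 13.9 CPM in controls, and its interval of −0.74 to 0.38 on the log2 scale was narrow. dpr9 had 9.01, 15.1 and 8.16 CPM in TRAP libraries, against 12.1 and 9.51 CPM in controls, with a log2 fold change of −0.0045 (95% interval −0.71 to 0.70).

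The remaining members were less certain. dpr4 had 6.18, 5.94 and 1.68 CPM in TRAP libraries, against 4.15 and 5.55 CPM in controls. dpr3 had 2.40, 1.49 and 3.41 CPM in TRAP, against 2.74 and 1.86 CPM in controls. In both the control values fell within the range of the TRAP values. dpr10 had 3.0, 0.625 and 4.33 CPM in TRAP libraries, against 3.83 and 3.56 CPM in controls. dpr5 was the most uneven, with 0, 37 and 181 counts in TRAP libraries against 117 and 43 counts in controls, and an interval of −3.88 to 3.73 on the log2 scale. For dpr2, dpr6 and dpr8 no leg library was above 2.73 CPM, and their log2 fold changes were −0.61 (95% interval −2.88 to 1.67), −0.10 (−2.25 to 2.05) and −0.65 (−2.35 to 1.04). Among the 8 members called in heads, the leg interval held the gene's own head change only for dpr5 and dpr6. This takes the head change without its SE and is no test of the difference, which is given below.

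**Figure D3:**
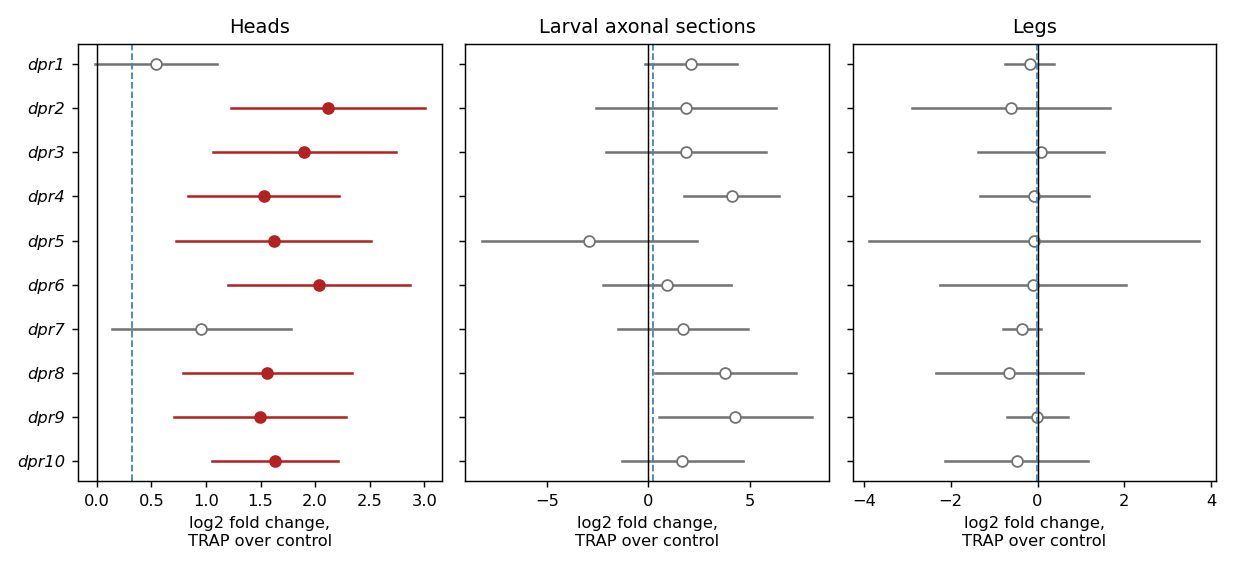
Log2 fold change of TRAP over control for dpr1 to dpr10 in heads, larval axonal sections and legs (points) with 95% intervals from the edgeR fit (lines). Filled red points passed the adjusted threshold, the solid line is at 0 and the dashed line at the median of all genes tested, and the 3 horizontal axes differ in range. Heads hold 8 called members, larvae and legs none.

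Heads and legs share the driver, so the difference of their TRAP effects was tested as the genotype by tissue interaction, although each tissue carries a batch label of its own, so that tissue and batch cannot be told apart. The head effect exceeded the leg effect in all 10 members, with a median difference of 1.72 on the log2 scale against 0.14 over all 16706 genes tested. Only dpr2 and dpr8 were called, where 2.54% of all genes tested were called higher in heads. The difference for dpr2 was 2.70 (95% interval 1.11 to 4.29, edgeR adjusted p = 0.0457), beside a head log2 fold change of 2.12 and a leg log2 fold change of −0.61. For dpr8 it was 2.18 (95% interval 1.03 to 3.33, edgeR adjusted p = 0.0306), beside 1.56 in heads and −0.65 in legs. The interaction was fitted and scaled over the head and leg libraries together, so it differs slightly from the subtraction of the separate fits.

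Both calls were close to the threshold. dpr2 was called in 2 and dpr8 in 3 of the 11 fits that left out 1 library, with edgeR adjusted p-values up to 0.19 for dpr2 and 0.143 for dpr8, each without leg control 2. The call of dpr2 held without head TRAP replicate 3 or leg TRAP replicate 3, and that of dpr8 without head TRAP replicate 3, head control 2 or leg TRAP replicate 2. For the other members the difference ran from 0.69 (dpr1, 95% interval −0.07 to 1.44) to 2.11 (dpr6, 95% interval 0.46 to 3.76), and the interval excluded 0 for 6 of these 8 before adjustment. The scaling moved the balance of all calls here, with 425 higher and 717 lower in heads under TMM, 525 and 347 with relative log expression factors, and 1099 and 66 with library totals, while the median of the members stayed between 1.52 and 1.58 above that of all genes tested.

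Levels of different members were compared per kb of annotated exon. In head TRAP libraries dpr7 was highest at 64.4 ± 36.6 CPM per kb (SD, n = 3), followed by dpr4 at 19.4 ± 8.11 and dpr1 at 13.8 ± 4.66 CPM per kb, and in head controls dpr7 was at 33.2 ± 2.2, dpr1 at 9.45 ± 0.24 and dpr4 at 6.73 ± 0.70 CPM per kb. In the TRAP libraries the ranges of neighbours in this order overlapped from dpr4 downward, so that only dpr7 stood apart. In controls the ranges of dpr7, dpr1, dpr4 and dpr9 (4.52 ± 0.26 CPM per kb) did not overlap with those of their neighbours in the order. dpr6 and dpr2 were lowest in both groups, at 3.93 ± 1.81 and 4.07 ± 1.77 CPM per kb in TRAP and 0.959 ± 0.305 and 0.937 ± 0.247 CPM per kb in controls.

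In legs dpr7 was again highest, at 13.6 ± 1.75 CPM per kb in TRAP (SD, n = 3) and 17.3 ± 2.27 CPM per kb in controls (SD, n = 2), and dpr1 came next, with ranges apart from those of dpr7. dpr6 was lowest, at 0.206 ± 0.131 CPM per kb in TRAP and 0.221 ± 0.020 CPM per kb in controls. In larvae the ranges of all neighbours overlapped in both groups. The order of the members was thus resolved in heads and legs at its top, and not at all in larvae.

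Members with a high driverless level changed least in heads. Across the 10 members, the level per kb in leg controls, libraries that do not enter the head test, had a Pearson's r of −0.79 and a Spearman's rho of −0.87 with the head log2 fold change. Across the 21 dpr genes the values were −0.75 and −0.76. Across 11755 genes with at least 0.1 CPM in leg controls they were −0.56 and −0.62, the same direction as among the dpr genes. Genes are not independent replicates, all points share the same libraries, and these values are a description.

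**Figure D4:**
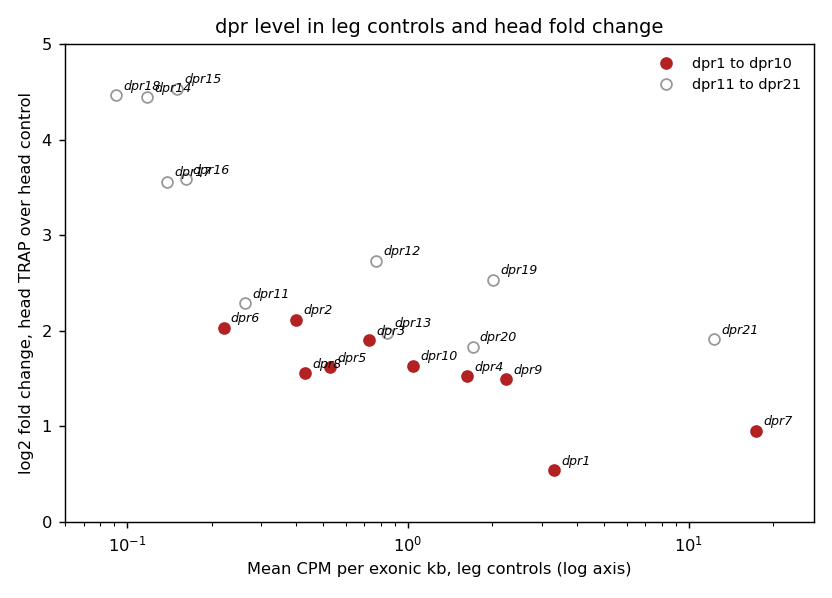
Head log2 fold change of TRAP over control against the mean CPM per exonic kb in leg controls (log axis) for the 21 dpr genes, with dpr1 to dpr10 filled in red. dpr7 and dpr1, the members at 17.3 and 3.31 CPM per kb in leg controls, have the smallest head changes, 0.96 and 0.54.

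Across all 17 libraries the log2 CPM of the 45 pairs of members had Pearson's r between 0.53 and 0.97, with a median of 0.80, values in which tissue and library quality are shared by all points. Likeness was ranked among the 10850 genes that averaged 1 CPM or more. The gene most like dpr1 was phyl (r = 0.98), which encodes an adaptor in sense organ and photoreceptor fate. The most like were CG3618 for dpr9 (r = 0.99), CG34354 and the dopamine and ecdysteroid receptor gene DopEcR for dpr7 (both r = 0.98), CG42750 and enc for dpr6 (r = 0.98 and 0.95), and hwt and CG12605 for dpr8 (both r = 0.97). For dpr3 they were RSG7 and the choline acetyltransferase gene ChAT (r = 0.96 and 0.95), for dpr4 the adenylyl cyclase gene rut and CG14535 (both r = 0.96), and for dpr2 CG7990 and the calcium sensor gene Frq1 (both r = 0.95). For dpr10 they were X11Lbeta (r = 0.95) and the serotonin receptor gene 5-HT7 (r = 0.94), and for dpr5 Try29F and CG12945 (both r = 0.89). Second places were CG15270 for dpr1 (r = 0.98) and CG8641 for dpr9 (r = 0.99). With a prior count of 0.5 in place of 2 the first place kept the same gene for dpr1, dpr3, dpr4, dpr5, dpr6, dpr9 and dpr10 and changed for dpr2, dpr7 and dpr8.

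Several members overlap other genes. In all, 23 annotated genes overlap 7 of the members, 10 of them within dpr6, and only CR45056 shares exonic bases with a member. CG6628, which lies within dpr10 on the same strand, had 1219 and 3982 counts in leg controls, where dpr10 had 307 and 298 counts, so the count of dpr10 does not include all reads within its span. dpr5, dpr7 and dpr9 overlap no counted gene.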

How the data were processed

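Per the study's methods and processing notes, the authors purified tagged ribosomes with anti-Flag beads, made cDNA with SMART-Seq HT, used Trim Galore for trimming, HISAT2 2.2.1 for alignment of the paired reads to BDGP6, SAMtools 1.12 for the alignments and SeqMonk for counting on genes. The deposited values are raw counts per gene without scaling. Whether reads or pairs were counted, the strand setting and the use of introns are not given in the sources used here. One leg control left out by the authors was not analysed here.

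Groups were taken from the labels. Within a tissue, every gene with 1 count or more in any library was tested with edgeR 4.0.16 (R 4.3.3, TMM, quasi-likelihood F-test, two-sided), and p-values were adjusted over all genes tested by the Benjamini-Hochberg procedure, with a threshold of 0.05. Intervals of 95% used the t quantile of the fit. No pair of replicates agreed within sampling noise (chi-square per gene of at least 60.5). Exonic lengths were unions of annotated exons of Ensembl release 115, whose coordinates matched those of all 10 members, and 2 DIP genes were matched by gene ID. The edgeR fit within each tissue was tried on simulated counts, with changes set only in genes above the level of most larval and leg members. The interaction and DESeq2 were not tried in this way. DESeq2 1.42.0, other scalings and filters, a threshold of 0.01, a single fit of all tissues, a replicate block and leaving out each library were the alternatives.

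All 10 members were named. Other genes named were DIP-gamma, the DIP genes bound by the members, overlapping genes and, for each member, the 2 genes with the highest Pearson's r over the 17 libraries. Those named among the DIP genes other than DIP-gamma, and the relation of level to fold change, were chosen after their values were seen. The members and the lists were chosen with earlier results of these data known.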

Additional observations from a re-analysis of the deposited data

Results flagged for a closer look

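The TRAP effect of dpr2 differed between heads and legs by 2.70 on the log2 scale and that of dpr8 by 2.18, by the genotype by tissue interaction in edgeR. In both genes every head TRAP library lay above every head control, while the leg groups overlapped. The leg means were 0.797 CPM in TRAP and 1.22 CPM in controls for dpr2, and 1.36 CPM in TRAP and 2.13 CPM in controls for dpr8. Tissue, the batch given in the labels, the sex of the flies and the cell bodies of the driver's neurons, which lie outside the legs, cannot be told apart here.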

How the results depend on the processing

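In heads, 8 members were called in the main analysis, 5 at a threshold of 0.01, 0 in a single fit of all 3 tissues, and 5 to 10 with 1 library left out. The cause of the loss in the single fit was not tested. Over all comparisons, members gained a call 18 times and lost one 10 times under alternatives other than a left-out library or the 0.01 threshold. The head counts with DESeq2, other scalings and other filters are not broken down here. In larvae DESeq2 called 1 member, and leaving out 1 library gave 0 to 2, where 0 were called in the main analysis. Leg calls were 0 under every alternative run. The interaction of heads and legs gave 2 calls, against 8 with DESeq2, 7 with library totals, 0 at a threshold of 0.01, 0 in the single fit and 0 to 6 with 1 library left out. Samples with the same replicate number had correlations of 0.28, 0.13 and 0.08 in heads, −0.51, −0.27 and −0.00 in larvae and 0.04 and 0.06 in legs. Head samples with different numbers ran from −0.29 to 0.21. In larvae and legs the replicate numbers do not all match the numbers in the library names. These few values therefore do not settle whether the samples were paired. With the replicate number as a block, 8 members were called in heads, 0 in larvae, 0 in legs and 4 in the interaction. Under the block the log2 fold change turned to −0.17 for dpr6 in larvae and, in legs, to −0.25 for dpr3, 0.34 for dpr4, 0.34 for dpr6 and 0.12 for dpr9. With library totals dpr9 in legs was at 0.0030. Log2 fold changes that crossed 0 with 1 library left out ran in larvae from −1.17 to 2.94 for dpr2, −0.95 to 1.36 for dpr6, −0.47 to 2.09 for dpr7 and −0.49 to 2.36 for dpr10, and in legs from −0.41 to 0.071 for dpr1, −0.24 to 0.39 for dpr3, −0.35 to 0.32 for dpr4, −1.96 to 0.86 for dpr5, −0.49 to 0.35 for dpr6 and −0.34 to 0.18 for dpr9. None of these crossings was called. Total counts did not follow the member values in larvae, with 51111444, 55654887 and 41211154 counts in TRAP replicates 1 to 3, against 71688344, 88324615 and 76145053 counts in controls 1 to 3.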

Other observations

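The 23 genes that overlap members did not follow the members from library to library in heads. Their summed counts were 402, 1307 and 1874 in head TRAP replicates 1 to 3, against 289, 610 and 274 in head controls 1 to 3, so that TRAP replicate 3, lowest for all 10 members, was highest for these genes. Over all genes, those at 0 counts numbered 2519, 1160 and 508 in head TRAP replicates 1 to 3, against 3181, 1966 and 2620 in head controls 1 to 3. In larvae they summed to 4324, 44 and 273 counts in TRAP replicates 1 to 3, against 30, 2279 and 2601 counts in controls 1 to 3, and all 23 had counts in TRAP replicate 1, against 10 in TRAP replicate 2 and 7 in control 1. In legs they summed to 392, 461 and 290 counts in TRAP libraries, against 1631 and 5178 counts in controls, most of them from CG6628, with 1219 and 3982 counts. These sums were chosen after the data were seen and were not tested.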
